A study of Homo sapiens with 6 samples.

Results

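The 9 genes described here, NFATC1, NFATC2, NFATC3, PPP3CA, PPP3R1, ORAI1, STIM1, ITPR1 and ITPR3, encode a route from calcium signals to transcription, and they were chosen by name for their roles in it. Each of them had exactly 1 of the 35410 gene rows, and all 9 had enough counts to be tested. RNA was measured by MACE-Seq (massive analysis of cDNA ends), a sequencing of the 3′ ends of polyadenylated RNA, in which a value is the number of reads of a gene and is not divided by its length. A pair of lines made from SEM, a human proB leukemia line in established culture that carries KMT2A::AFF1, were compared. SEM::mock carried an empty doxycycline-inducible vector, and SEM::EGR3 carried the same kind of vector with the transcription factor gene EGR3. Both lines received 1 µg/mL doxycycline for 48 h, so the agent was shared by all 6 libraries, and 3 biological replicates were measured of each line. Whether either line goes back to 1 clone is not given in the sources used here. The comparison asked which genes differed in expression when EGR3 was overexpressed.

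Calcium entry from outside and calcium release from the endoplasmic reticulum are coupled in lymphocytes. After a receptor activates phospholipase C, inositol trisphosphate opens its receptors (ITPR proteins) on the endoplasmic reticulum, STIM1 senses that the store has emptied, and it opens the ORAI1 channel in the plasma membrane. Calcium bound to calmodulin then activates calcineurin, a phosphatase made of a catalytic subunit (such as PPP3CA) and a regulatory subunit (PPP3R1), which dephosphorylates the NFATC transcription factors so that they enter the nucleus. EGR2 and EGR3 are known as genes that NFAT factors induce in lymphocytes, so EGR3 stands downstream of this route, and here its expression was driven from a vector instead.

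Since the overexpressed protein binds DNA, the promoters of the members were searched for the letters of the EGR family motif, GCGNGGGCG, on both strands. RefSeq promoters (GRCh38.p14, 250 bases before to 50 bases after the start) were given for 7 of the 9 members, without PPP3CA and ORAI1. The motif was held by 2 of these 7, PPP3R1 and STIM1, beside 2534 of 27305 promoters of the same length (9.28%). The promoters of the 7 members had a GC content between 57.7% and 79.7%, with a median of 58.3% over all promoters. All 3 matches overlapped a GC box (GGGCGG on either strand), and the stricter letters GCGTGGGCG were in none of the 7 members and in 214 of all promoters (0.784%). The sequences of 3 members are shown 5′ to 3′ in gene direction, because they cover a called gene with matches (PPP3R1, chr2:68252483-68252782, minus strand), a gene with a match that was not called (STIM1, chr11:3855414-3855713, plus strand) and a called gene without a match (NFATC3, chr16:68085120-68085419, plus strand). Capitals mark the matches, which lie on the opposite strand and begin at positions −232 and −63 from the start site of PPP3R1 and −46 from that of STIM1. The last 30 bases of the window were in 1 of 3 GENCODE transcripts of PPP3R1, 3 of 22 of NFATC3 and 0 of 20 of STIM1. The start site and direction of the STIM1 window therefore rest on RefSeq alone. A match describes letters only, and a window without a match says nothing about binding.
PPP3R1: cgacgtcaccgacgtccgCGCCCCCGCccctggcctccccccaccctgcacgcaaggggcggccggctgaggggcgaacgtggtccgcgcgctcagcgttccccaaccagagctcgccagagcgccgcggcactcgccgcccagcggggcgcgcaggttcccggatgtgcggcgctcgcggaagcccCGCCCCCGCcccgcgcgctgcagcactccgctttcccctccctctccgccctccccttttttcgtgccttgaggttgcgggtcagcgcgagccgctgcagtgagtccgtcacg
STIM1: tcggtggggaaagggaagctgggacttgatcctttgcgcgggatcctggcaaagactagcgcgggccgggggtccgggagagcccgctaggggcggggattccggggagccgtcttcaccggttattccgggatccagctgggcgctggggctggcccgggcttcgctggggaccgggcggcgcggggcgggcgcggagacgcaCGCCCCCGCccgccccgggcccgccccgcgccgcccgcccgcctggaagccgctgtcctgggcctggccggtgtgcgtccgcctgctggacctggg
NFATC3: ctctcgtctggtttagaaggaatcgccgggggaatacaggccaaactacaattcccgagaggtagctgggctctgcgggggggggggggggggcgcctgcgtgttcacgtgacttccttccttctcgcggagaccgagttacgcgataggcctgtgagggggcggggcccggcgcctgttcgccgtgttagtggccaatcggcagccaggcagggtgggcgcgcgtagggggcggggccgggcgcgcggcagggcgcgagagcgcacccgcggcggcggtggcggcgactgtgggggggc

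Library totals over all rows ranged from 5286115 to 6181388 counts for SEM::mock and from 7293092 to 15106018 for SEM::EGR3. EGR3 was counted 8, 10 and 6 times in SEM::mock and 9768, 4952 and 5557 times in SEM::EGR3 (log2fc 8.78, SE 0.11). The labelled cell type was checked against defining markers, and 9 of 11 B-lineage markers, among them PAX5, EBF1 and CD79A, had at most 3 counts in every library labelled SEM::mock, where the list summed to between 1.77 and 4.51 CPM. In SEM::EGR3, 2 of the 11 (DNTT and BLNK) were that low, and the list summed to between 652 and 684 CPM. The 8 KMT2A fusion targets summed to between 124 and 143 CPM in SEM::mock, where HOXA7, HOXA9 and PROM1 were at 3 counts or fewer and FLT3 at 1, 0 and 4, and to between 751 and 799 CPM in SEM::EGR3. LMO2 alone made up 119, 112 and 99.4 CPM of the SEM::mock sums and was the only target that fell (log2fc −1.77, SE 0.08). A list of 12 erythroid genes summed to between 4905 and 5203 CPM in SEM::mock and between 6131 and 6385 CPM in SEM::EGR3. The libraries labelled SEM::mock therefore did not carry most of the defining markers of a proB line. Every difference below rests on all 3 of them, none can be given without them, and the part of these marker differences in the results was not tested.

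Of the 9 members, 4 were higher in SEM::EGR3 (PPP3CA, NFATC3, ITPR1 and PPP3R1), 1 was lower (ITPR3), and 4 did not pass the test (ORAI1, STIM1, NFATC1 and NFATC2). The test was edgeR's quasi-likelihood test at a Benjamini-Hochberg adjusted p under 0.05 over 15465 genes, and it called 55.6% of the members beside 68.5% of all genes tested. By direction, 36.5% of all genes were called higher and 32.0% lower. The median log2fc of the members was 0.0023 and their median absolute log2fc was 0.22, beside 0.03 and 0.46 over all genes tested. The SEM::mock and SEM::EGR3 libraries did not overlap for 6 of the 9 members and for 70.1% of all genes. With a minimum absolute log2fc of 1, 25.2% of all genes were called and 1 member, PPP3CA. Summed over the 9 members, SEM::mock reached 521 ± 11.3 CPM and SEM::EGR3 739 ± 20.3 CPM (SD, n = 3 each). CPM here means counts per 1000000 counts of a library, scaled by TMM factors.

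**Figure D1:**
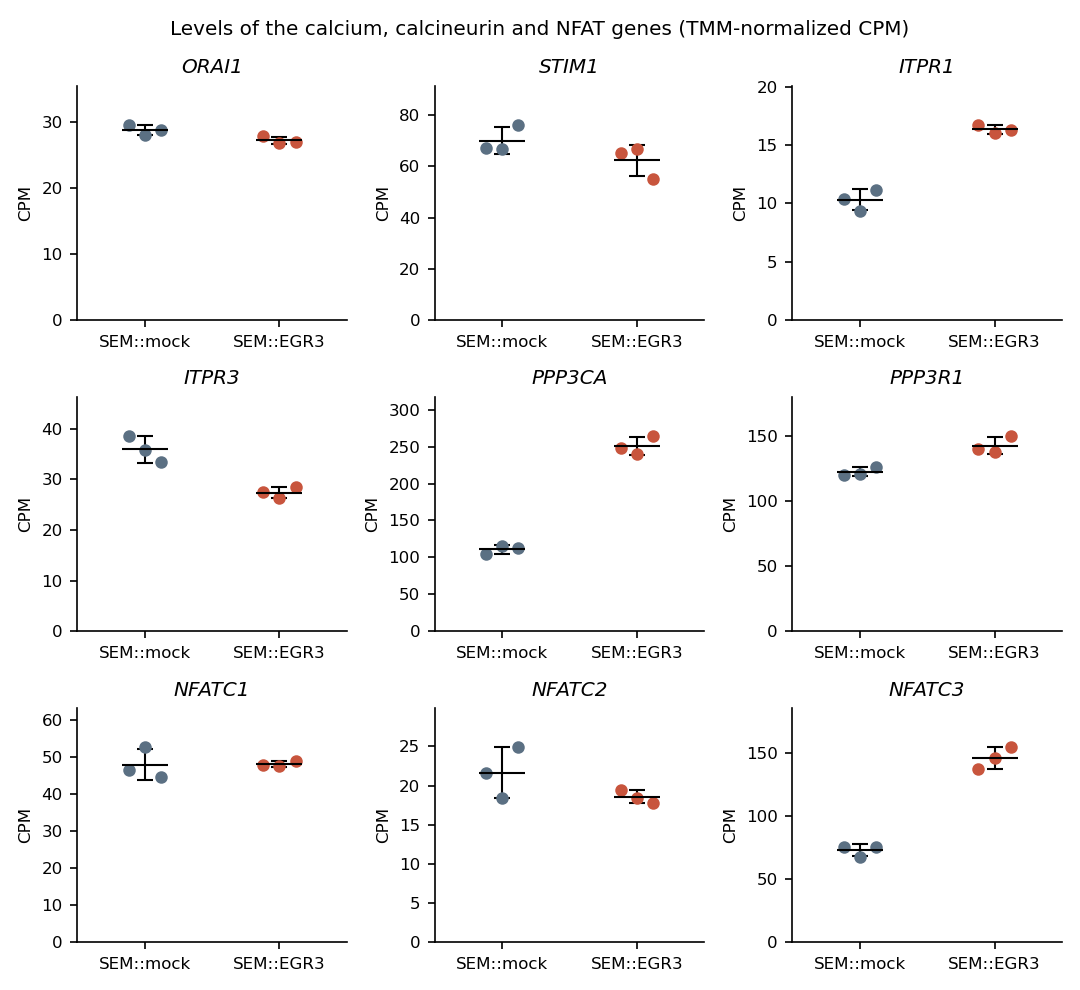
Each panel shows the level of 1 member (vertical axis, TMM-normalized CPM from 0) in the 3 SEM::mock and the 3 SEM::EGR3 libraries as points, with the mean as a long line and the SD as error bars. The groups are clearly apart for PPP3CA, NFATC3, ITPR1 and ITPR3, lie close together for PPP3R1 and ORAI1, and overlap for STIM1, NFATC1 and NFATC2.

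ORAI1 and STIM1 carry calcium entry through the plasma membrane, and neither passed the test. ORAI1 (ENSG00000276045, chr12:121626550-121642677, plus strand), the pore of the store-operated channel, had 29.5, 27.97 and 28.8 CPM in SEM::mock and 27.9, 26.8 and 27.0 CPM in SEM::EGR3. All SEM::EGR3 libraries lay just below the SEM::mock libraries, with a gap between the lines that was smaller than the gaps between replicates. The log2fc was −0.08 (SE 0.09, 95% interval −0.26 to 0.11, adjusted p = 0.460 by edgeR), and it depended in sign on the scaling, since it was 0.0031 without normalization factors.

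STIM1 (ENSG00000167323, chr11:3854527-4093210, plus strand), the calcium sensor of the endoplasmic reticulum, had 67.3, 66.7 and 76.1 CPM in SEM::mock and 65.0, 66.7 and 55.3 CPM in SEM::EGR3. The groups met at 66.7 CPM, with replicate 3 as the highest library of SEM::mock and as the lowest of SEM::EGR3. The log2fc was −0.16 (SE 0.08, 95% interval −0.32 to −0.01), and edgeR's adjusted p of 0.0625 missed the threshold. Without SEM::mock replicate 1, SEM::mock replicate 2 or SEM::EGR3 replicate 2, edgeR's adjusted p became 0.0369, 0.0391 and 0.0287, so single libraries decided the call.

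ITPR1 and ITPR3 encode inositol trisphosphate receptors, the channels that release calcium from the endoplasmic reticulum, and they moved in opposite directions. ITPR1 (ENSG00000150995, chr3:4493345-4847840, plus strand) had 10.4, 9.38 and 11.2 CPM in SEM::mock and 16.7, 16.0 and 16.2 CPM in SEM::EGR3. The groups did not overlap, and the SEM::EGR3 libraries lay close to each other. ITPR1 rose by a log2fc of 0.67 (SE 0.13, 95% interval 0.41 to 0.93, edgeR adjusted p = 5.06e-05), on only 56 to 59 counts per SEM::mock library and 119 to 259 per SEM::EGR3 library. ITPR3 (ENSG00000096433, chr6:33620365-33696574, plus strand) had 38.5, 35.8 and 33.3 CPM in SEM::mock and 27.5, 26.3 and 28.4 CPM in SEM::EGR3. All 3 SEM::EGR3 libraries were below all SEM::mock libraries. ITPR3 fell by 0.39 on the log2 scale (SE 0.09, 95% interval −0.57 to −0.21, edgeR adjusted p = 0.000331).

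Reads at the 3′ end of a member can belong to an overlapping gene, and the strand setting of the counting is not given in the sources used here. A listed gene crossed the 3′ end of 4 members. For ITPR3 it was UQCC2, a mitochondrial complex assembly gene on the opposite strand, with 977, 938 and 803 counts in SEM::mock and 1658, 867 and 1055 in SEM::EGR3, and it also fell (log2fc −0.52, SE 0.06, edgeR adjusted p = 3.25e-08). The ITPR3 value is therefore uncertain to the extent that reads were shared, which was not tested. For ITPR1 it was AC018816.1, on the opposite strand, with 33 to 40 counts in SEM::mock, 43 to 93 in SEM::EGR3 and a log2fc of −0.07 (SE 0.18). At the ends of NFATC3 and PPP3R1 the crossing genes, ESRP2 and AC017083.3, had at most 2 counts in any library.

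Both calcineurin subunits passed the test. PPP3CA (ENSG00000138814, chr4:101023409-101348278, minus strand), the alpha catalytic subunit, had 104, 116 and 113 CPM in SEM::mock and 248, 240.04 and 264 CPM in SEM::EGR3. Each SEM::EGR3 library stood far above each SEM::mock library. PPP3CA rose by a log2fc of 1.17 (2.26-fold, SE 0.06, 95% interval 1.05 to 1.30, edgeR adjusted p = 8.33e-15), the largest difference among the members and larger in size than that of 79.0% of all genes tested. FLJ20021, a gene on the opposite strand that overlaps PPP3CA away from its 3′ end, was counted 31, 31 and 29 times in SEM::mock and 441, 199 and 235 times in SEM::EGR3 (log2fc 2.32, SE 0.13). These counts are small beside the 1782 to 3847 counts of PPP3CA in SEM::EGR3.

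PPP3R1 (ENSG00000221823, chr2:68178857-68256237, minus strand), the calcium-binding regulatory subunit, had 120.2, 120.4 and 126 CPM in SEM::mock and 139, 138 and 149.6 CPM in SEM::EGR3. The groups did not overlap, but the lowest SEM::EGR3 library was near the highest SEM::mock library. PPP3R1 rose by a log2fc of 0.22 (1.16-fold, SE 0.06, 95% interval 0.10 to 0.34, edgeR adjusted p = 0.00169), which was larger in size than only 27.3% of all genes tested. The 95% intervals of the catalytic and the regulatory subunit did not meet, though the difference between their log2fc values was not tested itself.

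Of the 3 NFAT factors, NFATC3 alone passed the test. NFATC3 (ENSG00000072736, chr16:68084751-68229259, plus strand) had 76.0, 68.0 and 75.9 CPM in SEM::mock and 137, 146 and 155 CPM in SEM::EGR3. The lowest SEM::EGR3 library was far above the highest SEM::mock library. NFATC3 rose by a log2fc of 0.99 (1.99-fold, SE 0.07, 95% interval 0.86 to 1.13, edgeR adjusted p = 1.48e-12), larger in size than that of 74.6% of all genes tested.

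NFATC1 (ENSG00000131196, chr18:79395856-79529325, plus strand) had 46.5, 52.6 and 44.5 CPM in SEM::mock and 47.7, 47.6 and 49.0 CPM in SEM::EGR3. The SEM::EGR3 libraries lay inside the range of the SEM::mock libraries. The log2fc of NFATC1 was 0.0023 (SE 0.08, edgeR adjusted p = 0.981), and its 95% interval, −0.15 to 0.16, leaves room for differences of that size in either direction. NFATC2 (ENSG00000101096, chr20:51386957-51562831, minus strand) had 21.6, 18.4 and 24.9 CPM in SEM::mock and 19.5, 18.5 and 17.8 CPM in SEM::EGR3. The groups overlapped, and SEM::mock varied more (SD 3.24) than SEM::EGR3 (SD 0.849). The log2fc of NFATC2 was −0.20 (SE 0.11, 95% interval −0.43 to 0.03, edgeR adjusted p = 0.115). Without SEM::mock replicate 2 it was −0.32, with an adjusted p of 0.0212 in edgeR, so 1 library decided that call too.

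In bulk RNA, fewer cells of a type and less RNA per cell cannot be told apart, which holds for all of these values.

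The paralogs of the members were compared with them, since the proteins of a family do similar work. ORAI2 (log2fc −0.89, SE 0.08) and ORAI3 (log2fc −1.25, SE 0.09) fell, with edgeR adjusted p of 2.72e-10 and 4.37e-12, while ORAI1 did not pass the test. STIM2, the sensor that responds to small losses of stored calcium, rose by a log2fc of 0.88 (SE 0.08, edgeR adjusted p = 1.39e-09). PPP3CB, the beta catalytic subunit of calcineurin, rose by a log2fc of 0.31 (SE 0.10, edgeR adjusted p = 0.00812), and PPP3CC, the gamma subunit, had a log2fc of 0.21 (SE 0.13, edgeR adjusted p = 0.155). ITPR2 had a log2fc of −0.07 (SE 0.14, edgeR adjusted p = 0.674). NFATC4 fell by 0.65 on the log2 scale (SE 0.14, edgeR adjusted p = 0.000202).

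**Figure D2:**
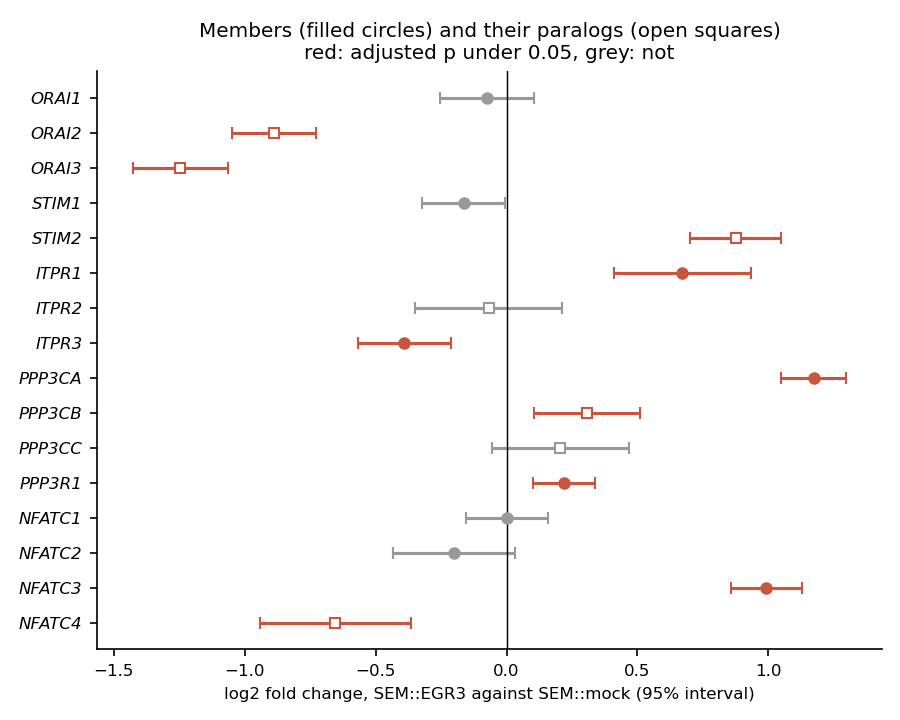
The horizontal axis gives the log2 fold change of SEM::EGR3 against SEM::mock with its 95% interval, for the 9 members (filled circles) and 7 paralogs (open squares), in red where the adjusted p was under 0.05. PPP3CA, NFATC3 and STIM2 lie farthest to the right, and ORAI2 and ORAI3 farthest to the left.

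A share of a gene within the summed counts of its family does not depend on how libraries are scaled, and it was computed for 15 genes of 5 families. With 3 libraries against 3, the exact two-sided permutation test cannot give a p under 0.1. This exact permutation test gave p = 0.1 for 14 of the 15 shares (0.107 after Benjamini-Hochberg adjustment over the 15), because their libraries did not overlap, and p = 0.9 for ITPR2. Thus no share can pass a threshold of 0.05 in this design, and the shares are given as values.

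NFATC3 made up 48.0%, 44.9% and 47.0% of the summed counts of NFATC1 to NFATC4 in SEM::mock and 64.4%, 65.9% and 67.1% in SEM::EGR3. This was the largest difference of any share, 19.2 percentage points, and every SEM::EGR3 library was above every SEM::mock library. NFATC1 went from 30.5% ± 3.71 to 21.7% ± 0.645 and NFATC2 from 13.7% ± 1.63 to 8.39% ± 0.725 (SD, n = 3 each), although neither gene's own level passed the test. The summed level of the 4 NFAT genes was 157 ± 5.08 CPM in SEM::mock and 222 ± 9.02 CPM in SEM::EGR3 (SD, n = 3 each).

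PPP3CA made up 75.1% ± 1.55 of the counts of the 3 calcineurin catalytic subunits in SEM::mock and 85.1% ± 0.674 in SEM::EGR3 (SD, n = 3 each). The sum over these 3 genes was 148 ± 5.57 CPM in SEM::mock and 295 ± 13.7 CPM in SEM::EGR3, a ratio of 1.99, beside the 1.16-fold difference of PPP3R1.

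ORAI1 made up 22.7% ± 1.06 of the ORAI counts in SEM::mock and 36.3% ± 0.620 in SEM::EGR3 (SD, n = 3 each), while the ORAI sum was 127 ± 3.50 CPM in SEM::mock and 74.9 ± 1.52 CPM in SEM::EGR3. The share of ORAI1 was higher on a smaller total, as ORAI2 and ORAI3 fell. STIM1 made up 71.8%, 68.5% and 71.1% of the STIM counts in SEM::mock and 53.5%, 55.2% and 52.2% in SEM::EGR3, and STIM2 made up the rest. The STIM sum was 99.4 ± 6.86 CPM in SEM::mock and 116 ± 8.84 CPM in SEM::EGR3 (SD, n = 3 each), with overlapping libraries.

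ITPR1 made up 16.3% ± 1.70 of the counts of the 3 inositol trisphosphate receptors in SEM::mock and 27.4% ± 0.814 in SEM::EGR3, and ITPR3 made up 56.7% ± 4.49 and 46.0% ± 1.99 (SD, n = 3 each). The share of ITPR2 was 26.9% ± 4.72 and 26.6% ± 2.53. The sum over the 3 receptors was 63.3 ± 1.32 CPM in SEM::mock and 59.6 ± 3.00 CPM in SEM::EGR3, with overlapping libraries. The receptor family thus differed in its makeup, with a sum that overlapped between the lines.

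**Figure D3:**
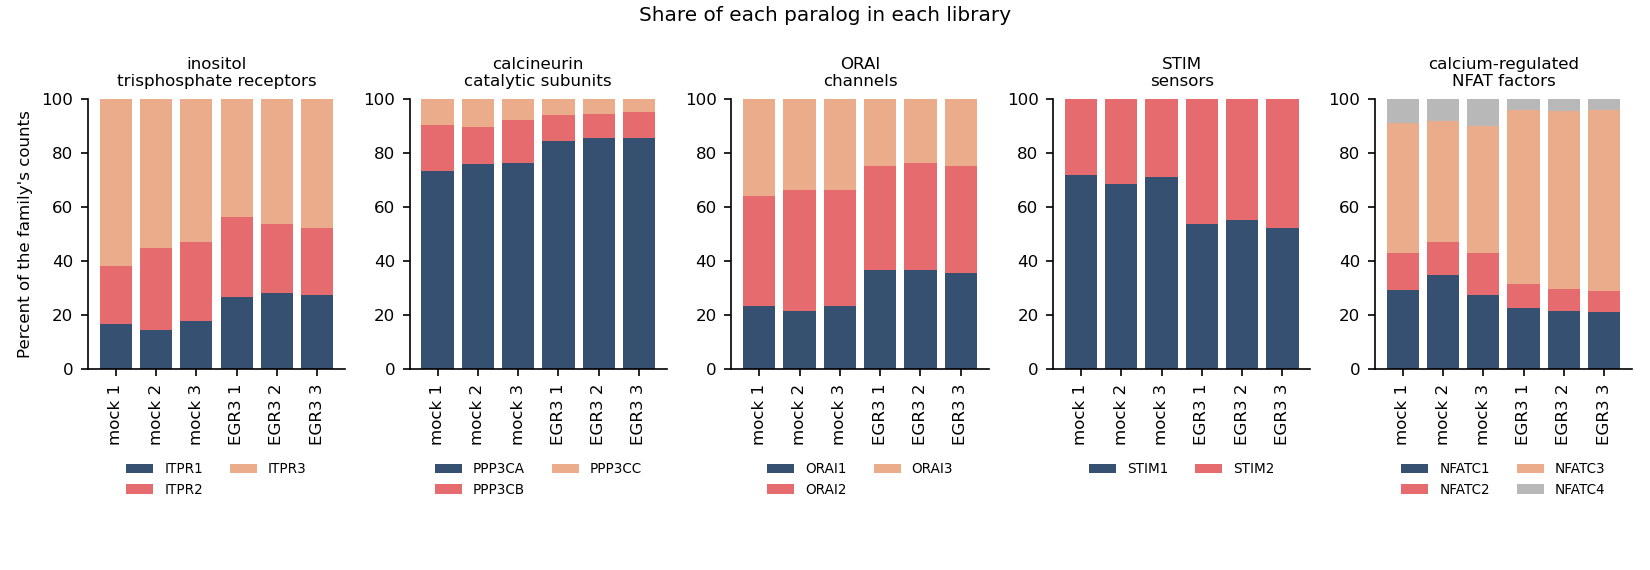
Stacked bars give each gene's percent of its family's counts (vertical axis, 0 to 100) in each of the 6 libraries, for 5 families. NFATC3, PPP3CA, ORAI1, STIM2 and ITPR1 take a larger share in each SEM::EGR3 library than in any SEM::mock library.

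The other genes of the route were taken from a list by role, of which 63 had a row and 55 were tested. Of these 55, 22 rose, 16 fell and 17 did not pass edgeR's test, so 69.1% were called beside 68.5% of all genes, with a median log2fc of 0.09 beside 0.03. With an absolute log2fc of at least 1, 10 rose and 6 fell, where 25.2% of all genes were called. TRPM2, PLCG2, MICU3 and ATP2A1 are among the rises, though they reached the test only through their counts in SEM::EGR3. With at least 10 counts required in every library, 33 were called, 19 higher and 14 lower, beside 8481 of all genes. The numbers tested under that filter are not given here, so these counts do not show whether the list differed from all genes.

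Next to the NFAT and calcineurin genes, CALM2 and CALM3, which encode calmodulin, the carrier of the calcium signal to calcineurin, rose by log2fc values of 0.61 and 0.63 (SE 0.05 each). Another group of the list held 5 tested genes, calcineurin inhibitors and anchors together with the drug-binding proteins PPIA and FKBP1A. In this group RCAN3 and PPIA, the target of cyclosporin, fell (log2fc −0.98, SE 0.14, and −0.70, SE 0.06). CABIN1 rose (log2fc 0.21, SE 0.09), and RCAN1 and FKBP1A did not pass the test. Of these 5, 60% were called, beside 68.5% of all genes.

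Of 9 kinases and partners of NFAT, 4 rose, 1 fell and 4 did not pass, so 55.6% were called beside 68.5% of all genes. DYRK2 and DYRK1A, kinases that phosphorylate NFAT, rose by log2fc values of 1.13 (SE 0.11) and 0.52 (SE 0.08). HOMER2 and HOMER3, scaffold proteins that bind NFAT and compete with calcineurin, went in opposite directions. HOMER2 rose from 4.06, 3.18 and 1.57 CPM in SEM::mock to 83.0, 78.4 and 80.7 CPM in SEM::EGR3 (log2fc 4.75, SE 0.14). HOMER3 fell by 1.18 on the log2 scale (SE 0.18).

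Beside ORAI1 and STIM1, 11 genes of calcium entry were tested, of which 3 rose, 5 fell and 3 did not pass. Thus 72.7% were called, near the 68.5% of all genes. TRPV2, a cation channel, had 93.8, 93.1 and 85.5 CPM in SEM::mock and 19.5, 23.2 and 24.4 CPM in SEM::EGR3, and it fell by 2.05 on the log2 scale (SE 0.08). TRPM4, a channel that is opened by calcium, fell by 1.70 on the log2 scale (SE 0.15). TRPM2 was counted 2, 3 and 1 times in SEM::mock and 182, 95 and 112 times in SEM::EGR3. The ratio of its pooled, TMM-scaled counts was 33.9 (exact 95% interval 15.4 to 92.9, for counting error only). TRPM2 reached the test only through its counts in SEM::EGR3, so its call carries no weight here. SARAF, an inhibitor of store-operated entry, rose by a log2fc of 0.54 (SE 0.06).

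Beside ITPR1 and ITPR3, 5 genes of calcium release were tested, of which 2 rose, 1 fell and 2 did not pass. This was 60% called, beside 68.5% of all genes. IRAG2, a membrane protein of the endoplasmic reticulum that associates with inositol trisphosphate receptors, had 24.0, 23.4 and 18.04 CPM in SEM::mock and 184, 179 and 180.4 CPM in SEM::EGR3 (log2fc 3.04, SE 0.08). AHCYL1, which binds these receptors and inhibits them, rose by a log2fc of 0.51 (SE 0.06), and RYR2, a ryanodine receptor, fell by 0.71 (SE 0.18).

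Of 5 phospholipase C genes tested, 2 rose and 3 fell, beside 68.5% of all genes called. PLCB2 rose by a log2fc of 1.15 (SE 0.10). PLCG2, which acts behind the B cell receptor, had 9, 17 and 7 counts in SEM::mock (mean 1.94 CPM). It had 92, 54 and 59 counts in SEM::EGR3 (log2fc 1.70, SE 0.25). The SEM::mock counts of PLCG2 alone did not meet the filter, and it reached the test through SEM::EGR3, so its call carries no weight here. PLCG1, PLCB1 and PLCB3 fell by 0.48, 0.90 and 0.34 on the log2 scale. The B-lineage markers were also higher in the SEM::EGR3 libraries, as given above, and their part in the values of PLCG2 and IRAG2 was not tested.

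Of 7 pump and exchanger genes tested, 4 rose and 3 fell, beside 68.5% of all genes called. ATP2A3, a calcium pump of the endoplasmic reticulum, had 80.4, 74.9 and 72.8 CPM in SEM::mock and 22.1, 22.2 and 22.3 CPM in SEM::EGR3, and it fell by 1.78 on the log2 scale (SE 0.08). ATP2A2, the widely expressed pump of the same membrane, fell by 0.13 (SE 0.06, edgeR adjusted p = 0.0487). The plasma membrane pumps ATP2B1 and ATP2B4 rose by log2fc values of 1.27 (SE 0.07) and 1.11 (SE 0.11), and the mitochondrial exchanger SLC8B1 fell by 1.76 (SE 0.10). Of the mitochondrial calcium uniporter, the regulator MICU3 had only 10, 8 and 7 counts in SEM::mock and 53, 25 and 23 in SEM::EGR3 (log2fc 1.07, SE 0.30). MICU3 reached the test only through its counts in SEM::EGR3, so its call carries no weight here. The pore MCU had a log2fc of 0.05 (SE 0.13) and did not pass the test.

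**Figure D4:**
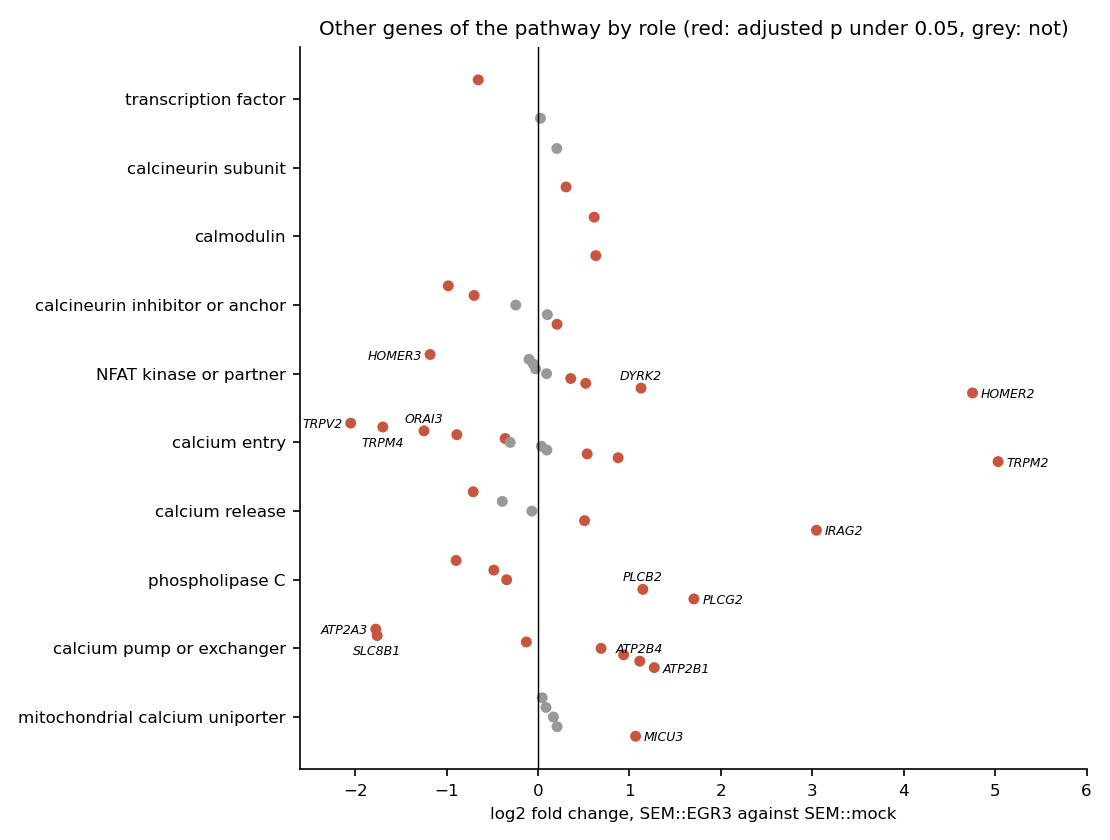
Each point is a tested gene of the list, placed by its log2 fold change of SEM::EGR3 against SEM::mock (horizontal axis) and its role (vertical axis), in red where the adjusted p was under 0.05, and named where the change was at least 1 in size. HOMER2, TRPM2 and IRAG2 lie farthest to the right and TRPV2 farthest to the left, and the point of TRPM2 is a fitted value of a gene near the detection limit in SEM::mock.

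Known NFAT target genes were examined as the output of the route, of which 11 had a row and 6 were tested. EGR2, TNF and FASLG rose, NR4A1 and CD69 fell, and RCAN1 did not pass the test. TNF was at 0 counts in each SEM::mock library and was counted 113, 75 and 103 times in SEM::EGR3, which was at least 17.8-fold higher against 3 counts per library. FASLG was counted 0, 1 and 0 times in SEM::mock and 43, 20 and 28 times in SEM::EGR3, a ratio of 47.5 with a wide exact 95% interval of 8.32 to 1898 that covers counting error only. EGR2 was counted 6, 1 and 4 times in SEM::mock and 32, 22 and 20 times in SEM::EGR3 (log2fc 1.80, SE 0.42). NR4A1 and CD69, genes that are induced early after antigen receptor stimulation, fell by 1.21 (SE 0.17) and 1.65 (SE 0.16) on the log2 scale. RCAN1, which feeds back on calcineurin, had 13.2, 8.21 and 9.80 CPM in SEM::mock and 9.16, 8.08 and 8.84 CPM in SEM::EGR3, with overlapping groups (log2fc −0.24, SE 0.16, edgeR adjusted p = 0.191). TNF, FASLG and EGR2 reached the test only through their counts in SEM::EGR3, so the share of the list that was called and its median carry no weight here. With at least 10 counts required in every library, 2 targets were called, NR4A1 and CD69, and both were lower. The share of all genes called under that filter is not given here, so this count is not a result about the list. These targets answer to other factors as well, and the low counts of TNF, FASLG and EGR2 limit their precision.

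For NFATC3, PPP3CA and ITPR1, the tested genes with the most similar profile over the 6 libraries were found by the root mean square difference of log2 CPM after centring. They were BAIAP2 (0.040) and HDAC4-AS1 (0.041) for NFATC3, IFIT3 (0.032) and SNAPC1 (0.039) for PPP3CA, and TBC1D22A (0.028) and GFM1 (0.029) for ITPR1. With 2 groups of 3 libraries, this measure mostly reflects a difference of equal size between the lines, and the paired log2fc values were 1.00 for BAIAP2 beside 0.99 for NFATC3, 1.197 for IFIT3 beside 1.17 for PPP3CA, and 0.66 for TBC1D22A beside 0.67 for ITPR1.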

How the data were processed

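MACE-Seq libraries of SEM::mock and SEM::EGR3 (n = 3 biological replicates each) were grouped by their titles. Per the submitters' processing notes, bcl2fastq, Bowtie2, HTSeq and GRCh38 were used. Versions, gene annotation and strand setting are not given in the sources used here. The authors deposited whole-number counts for 35410 genes, without normalization. The CPM values deposited under the name TPM are the counts times 1 constant per library, without a length correction. The deposited normalized signal is the count times another constant per library and is empty for 4816 genes. Neither scale was used, and CPM was recomputed from the counts. The authors' columns of fold changes and p-values were not used either. The headings spell EGR3 as ERG3 and were read as the EGR3 line, since no other line is named.

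Counts were fitted in R 4.3.3 with edgeR 4.0.16 (filterByExpr, TMM, glmQLFit, glmQLFTest, no further term), and p-values were adjusted by Benjamini and Hochberg over 15465 genes. Standard errors were computed as the absolute log2fc divided by the square root of the quasi-likelihood F statistic. The 95% intervals were built from them with the t distribution. On simulated counts the fit recovered 61 of 88 changes of 0.75 (69.3%) and 105 of 106 changes of 1.5 (99.1%) on the log2 scale, with 4 false calls over 15065 genes. The simulation changed few genes and gave every gene the same noise setting, whereas 68.5% of genes were called in the data. These rates therefore check the code and do not carry over to the data. Replicates of a line differed by more than sampling noise (chi-square per degree of freedom 1.71 to 3.12). Permutation tests used SciPy 1.17.1.

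The members and the lists were chosen with earlier results of these data known. Named are all members, their paralogs, listed genes with an adjusted p under 0.05 and an absolute log2fc of at least 1, and the 2 genes most like each member called at 0.5 or more. Other genes of the lists (CALM2, CALM3, RCAN1, RCAN3, PPIA, CABIN1, FKBP1A, DYRK1A, SARAF, AHCYL1, RYR2, PLCG1, PLCB1, PLCB3, ATP2A1, ATP2A2, MCU) and the genes overlapping a member were named after their values were seen. Of the 35410 identifiers, 34339 (97.0%) were in GENCODE release 29 (GRCh38), which gave the positions. IL2, IL4, IFNG and PPP3R2 were not analysed here, and results of some listed genes are left out. Against a line with 0 counts in each library, a fold is a lower bound set by 3 counts per library, which covers counting error only. Alternatives were RLE, upper-quartile or no normalization factors, a filter of 10 counts in every library or none, DESeq2 1.42.0, the replicate number as a term, each library left out, and a minimum absolute log2fc of 1.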

Additional observations from a re-analysis of the deposited data

How the results depend on the processing

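Of 277 values under alternatives, 259 kept direction and call (for counts, stayed within 1.5 times, and for shares, kept the sign of the difference only). The 5 called members kept both under other scalings, filters, tools and left-out libraries, with log2fc between 0.93 and 1.07 for NFATC3, 1.11 and 1.25 for PPP3CA, 0.18 and 0.30 for PPP3R1, 0.59 and 0.75 for ITPR1 and −0.45 and −0.31 for ITPR3. Without normalization factors ORAI1 turned to 0.0031, and the median of all genes was 0.11 in place of 0.03. Without a filter NFATC1 turned to −0.00080. With a minimum absolute log2fc of 1, 3896 genes, 1 member (PPP3CA) and 16 pathway genes were called. With at least 10 counts in every library 2 NFAT targets were called, both lower, since TNF, FASLG and EGR2 were then not tested. Leaving out 1 library gave −0.061 to 0.065 for NFATC1, −0.32 to −0.11 for NFATC2, −0.21 to −0.086 for STIM1, 5 to 7 called members, and −3.03 to 1.32 points for the ITPR2 share, which was 0.36 points with pooled counts. The cause of these moves was not tested. The replicate number as a block gave 10081 called genes, 5 members, 36 pathway genes and 5 NFAT targets and changed no call of a member. Same-numbered libraries correlated at −0.11, −0.06 and −0.03 in their deviations from the line means, so the numbers were not taken to pair the libraries. Depth limits ITPR1, TRPM2, MICU3, PLCG2, TNF, FASLG and EGR2.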
